A study of Schizosaccharomyces pombe with 12 samples.

Results

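The 10 genes described here make or remodel the glucan and chitin of the fission yeast (Schizosaccharomyces pombe) cell wall, namely bgs1, bgs2, bgs3, bgs4, mok1, chs1, chs2, gas1, gas2 and psu1. They were chosen by name, and each had 1 probe set among the 2917 probe sets (2899 genes) that the platform annotation assigns to a single S. pombe gene. mok1 is listed there as ags1, its other name, and was matched by gene ID. The array also carries probe sets for the budding yeast genes GAS1, GAS2, CHS1 and CHS2, whose signals lay between log2 2.0 and 3.82. Those were left out.

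The fission yeast wall is built mostly of beta-glucan and alpha-glucan with galactomannan, and vegetative cells have little or no chitin. Membrane-bound synthases of the Bgs family extrude linear and branched beta-1,3-glucan, and Ags1/Mok1 makes the alpha-1,3-glucan. Gas-family enzymes then cut and rejoin beta-1,3-glucan chains outside the membrane. Ascospores formed after meiosis have a wall of their own, for which a separate synthase of the Bgs family, Bgs2, and the chitin synthase Chs1 are needed. By this division bgs2 and chs1 are the 2 sporulation members and the other 8 are called vegetative.

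Total RNA of 3 strains in 4 conditions was measured on 12 one-colour Affymetrix Yeast Genome 2.0 arrays, 1 per strain and condition. The wild type (WT, strain JK317) was h-, leu1-32, ura4-D18. The mutants had the same markers and mating type, with slm9 (slm9D, MC3749) or hip1 (hip1D, MC3725) replaced by ura4. Both mutants thus carry ura4 and WT does not, so the deletion and ura4 cannot be told apart in mutants against WT. Slm9 and Hip1 are subunits of HIRA, a histone chaperone complex. Log-phase cultures in YES medium at 32 °C were sampled without stress, after a heat step (1 h at 40 °C), after an oxidative step (1 h in 25 mM hydrogen peroxide, H2O2), or after the heat step followed by the oxidative step. Nothing says that the arrays come from separate cultures, so the array-to-array spread in the p-values may be technical. With 1 array per strain and condition, the spread in the fit of strain and condition also holds differences between strains in their response. Each genotype was 1 strain, and each WT array stands alone in its condition.

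Signal of the deleted genes was checked against the labels. slm9 had a signal of log2 9.59 ± 0.31 in WT (SD, n = 4 arrays) and 5.14 ± 0.22 in its deletion strain. For hip1 the values were 9.51 ± 0.22 in WT and 8.39 ± 0.07 in its deletion strain, well above background, so this gene checks its label only weakly. The marker ura4 had 4.69 ± 0.41 in WT and 11.46 ± 0.25 and 11.64 ± 0.20 in the slm9 and hip1 deletions. The WT array after H2O2 alone stood apart, with a median signal of log2 9.36 against 9.46 to 9.57 on the other arrays. Its background level, the 95th percentile of probe sets for genes outside S. pombe, was also the highest, at 4.03 against 3.55 to 3.93. All 10 members were above the background of their own array on all 12 arrays. The smallest margin was 0.11, for chs1 on the WT array after H2O2 alone.

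Most of the vegetative members fell under stress in all 3 strains, with psu1 falling furthest. gas1 came next at 40 °C and after both stresses, and chs2 after H2O2 alone in the mean of the strains. That last order was the one of WT (log2 differences of -1.85 for chs2 and -1.02 for gas1). In slm9D and hip1D gas1 fell further after H2O2 (-1.73 and -1.59) than chs2 did (-1.38 and -1.29). The values of single arrays show the size of the falls (log2 intensity, a scale on which levels of different probe sets cannot be compared). Differences between conditions are log2 differences ± SE from limma with strain and condition as terms, 3 arrays per condition, and a member is called at an adjusted p under 0.05. The 3 stress conditions were all set against the same unstressed arrays.

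**Figure D1:**
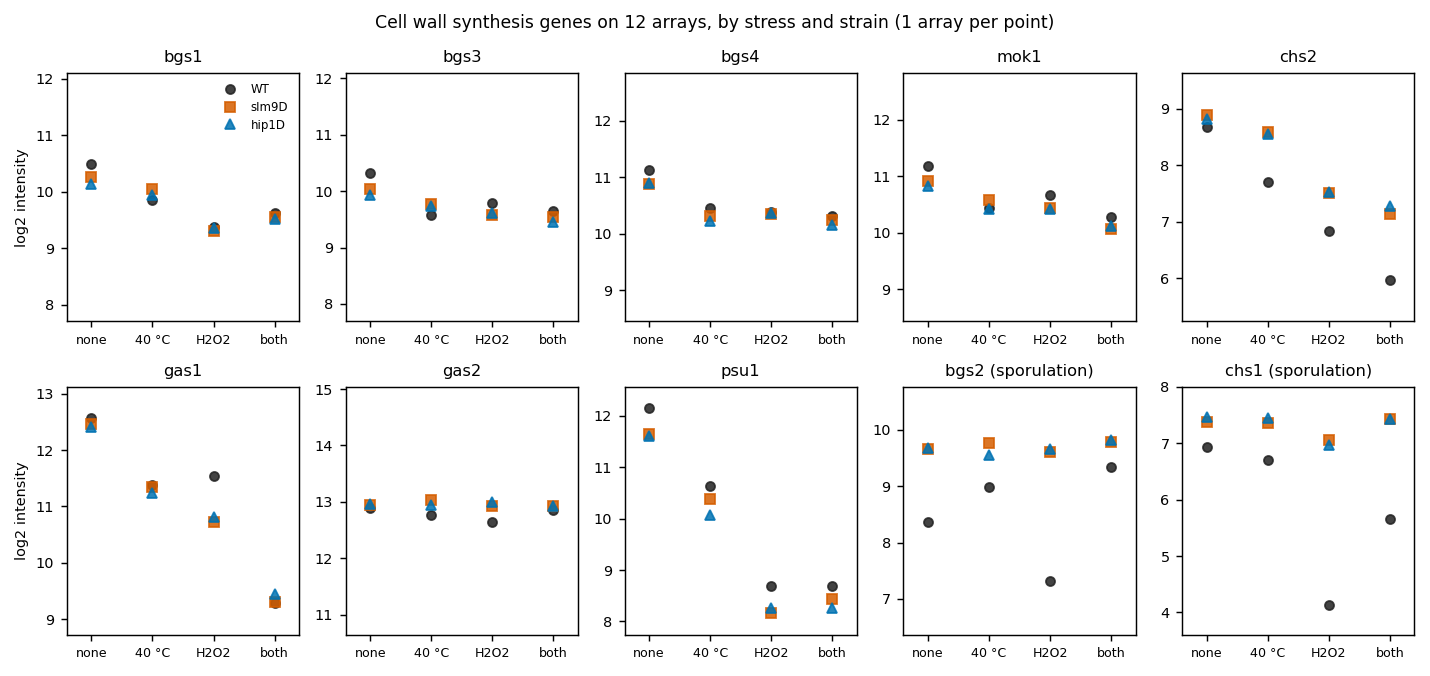
log2 intensity of each member (vertical axis, same span in every panel) in the 4 conditions (horizontal axis: none, 40 °C, H2O2, and 40 °C then H2O2), 1 point per array, with circles for WT, squares for slm9D and triangles for hip1D. psu1 and gas1 descend in all strains, gas2 is flat, and bgs2 and chs1 are lower in WT than in both mutants.

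psu1 encodes a wall protein of the SUN family. Its signal was 12.15, 11.65 and 11.60 in unstressed WT, slm9D and hip1D, and 10.64, 10.39 and 10.07 at 40 °C. With H2O2 alone it was 8.69, 8.16 and 8.27, and after 40 °C then H2O2 it was 8.69, 8.44 and 8.27. The stressed and unstressed arrays did not overlap, and the levels after H2O2 were about the same with and without the 40 °C step. The share of all probe sets without such overlap was not counted, here or for the members below. In WT, slm9D and hip1D the signal after H2O2 alone was 10.98, 11.2 and 10.06 times lower than unstressed. The log2 differences from unstressed were -1.43 ± 0.09 at 40 °C (2.69-fold lower, adjusted p = 6.97e-06), -3.42 ± 0.09 after H2O2 (10.7-fold, adjusted p = 6.57e-08) and -3.33 ± 0.09 after both (10.1-fold, adjusted p = 8.5e-08). Its SD over the 12 arrays, 1.51, was at percentile 98.9 of all S. pombe probe sets.

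gas1 encodes the main beta-1,3-glucanosyltransferase of growing cells. Its signal was 12.56, 12.46 and 12.40 in unstressed WT, slm9D and hip1D and 11.38, 11.35 and 11.24 at 40 °C. After H2O2 it was 11.54 in WT against 10.73 and 10.81 in the mutants, and after 40 °C then H2O2 it was 9.29, 9.30 and 9.45. Here each stress lowered the signal and the sequence of both gave the lowest values, with no overlap between that condition and any other. gas1 differed from unstressed by -1.15 ± 0.16 at 40 °C (2.22-fold lower, adjusted p = 0.000374), -1.44 ± 0.16 after H2O2 (2.72-fold, adjusted p = 0.000165) and -3.12 ± 0.16 after both (8.72-fold, adjusted p = 1.22e-06).

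gas2, the paralog with the same enzyme activity, did not follow gas1. Its signal lay between 12.65 and 13.04 on all 12 arrays, and no stress comparison passed the test (log2 differences of -0.02, -0.07 and -0.04 from unstressed, adjusted p = 0.823, 0.321 and 0.6). The SD over the arrays was 0.11, at percentile 4.7 of all S. pombe probe sets. It was the one vegetative member not called under any stress.

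The beta-glucan synthase genes moved less. bgs4, which encodes the synthase of most branched beta-1,3-glucan, read 11.13, 10.88 and 10.90 in unstressed WT, slm9D and hip1D, then 10.46, 10.32 and 10.23 with heat, 10.39, 10.35 and 10.36 with H2O2, and 10.32, 10.25 and 10.16 with both. Every stressed array was below every unstressed one, and the 40 °C values overlapped with those of both other stresses. bgs4 fell under all 3 stresses, with log2 differences of -0.63 ± 0.07 at 40 °C (adjusted p = 0.000102), -0.60 ± 0.07 after H2O2 (adjusted p = 0.000209) and -0.72 ± 0.07 after both (adjusted p = 3.21e-05).

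bgs1 encodes the synthase of the linear glucan of the primary septum. In the order WT, slm9D, hip1D it read 10.49, 10.26 and 10.14 without stress, 9.85, 10.05 and 9.94 with heat, 9.38, 9.31 and 9.36 with H2O2, and 9.63, 9.56 and 9.51 with both. The 4 conditions did not overlap, and H2O2 alone gave the lowest values. The differences were -0.35 ± 0.10 at 40 °C (adjusted p = 0.0149), -0.94 ± 0.10 after H2O2 (1.92-fold lower, adjusted p = 0.000123) and -0.73 ± 0.10 after both (adjusted p = 0.000195).

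bgs3, which is needed for vegetative growth, lies next to gas1 in the genome. Its values were 10.33, 10.03 and 9.94 without stress, 9.57, 9.78 and 9.74 with heat, 9.79, 9.58 and 9.62 with H2O2 and 9.64, 9.55 and 9.45 with both. All stressed arrays were below the unstressed ones, and among the stressed conditions the values overlapped. bgs3 fell in each, by log2 differences of -0.40 ± 0.11 (adjusted p = 0.0142), -0.44 ± 0.11 (adjusted p = 0.011) and -0.55 ± 0.11 (adjusted p = 0.00209) in the same order of stresses. At 40 °C the WT fell most for both bgs1 and bgs3, and without the WT arrays the 40 °C differences were -0.20 and -0.22. Without slm9D or without hip1D neither was called at 40 °C, with adjusted p from 0.0685 to 0.104, nor was bgs3 after H2O2 (adjusted p = 0.132 and 0.0749).

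mok1, the gene of the alpha-1,3-glucan synthase of the vegetative wall, read 11.18, 10.91 and 10.83 without stress, 10.44, 10.57 and 10.41 with heat, 10.67, 10.44 and 10.42 with H2O2, and 10.27, 10.07 and 10.11 with both. The 2 single stresses overlapped, and the sequence of both lay below them. Its differences from unstressed were -0.50 ± 0.09 (adjusted p = 0.00129), -0.46 ± 0.09 (adjusted p = 0.00229) and -0.82 ± 0.09 (adjusted p = 5.21e-05). Without slm9D the H2O2 difference was not called (adjusted p = 0.052).

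chs2 encodes a protein related to chitin synthases that is found at the septum. Unstressed WT, slm9D and hip1D had 8.68, 8.89 and 8.81, and 7.70, 8.58 and 8.56 were measured at 40 °C. With H2O2 the values were 6.83, 7.51 and 7.52, and with both 5.97, 7.13 and 7.27. WT was the lowest strain in all 3 stressed conditions and also in unstressed cells, by a smaller gap. chs2 was lower by 1.51 ± 0.19 after H2O2 (log2 difference -1.51, 2.84-fold, adjusted p = 0.00033) and its difference after both was -2.00 ± 0.19 (4.01-fold lower, adjusted p = 3.28e-05). The 40 °C call (-0.51 ± 0.19, adjusted p = 0.0491) was lost in 5 alternatives, and without the WT arrays the value was -0.28.

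Counted together, 7 of the 8 vegetative members fell in each stress condition, with a median log2 difference of -0.51 at 40 °C, -0.77 after H2O2 and -0.78 after both. Over all probe sets the medians were 0.01, -0.07 and -0.05. Of all 2917 probe sets 48.4% were called at 40 °C (22.7% higher, 25.7% lower), 45% after H2O2 (15.8% higher, 29.2% lower) and 57.3% after both (23.8% higher, 33.5% lower), so a call by itself was common. No member was called higher in any of the 3.

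**Figure D2:**
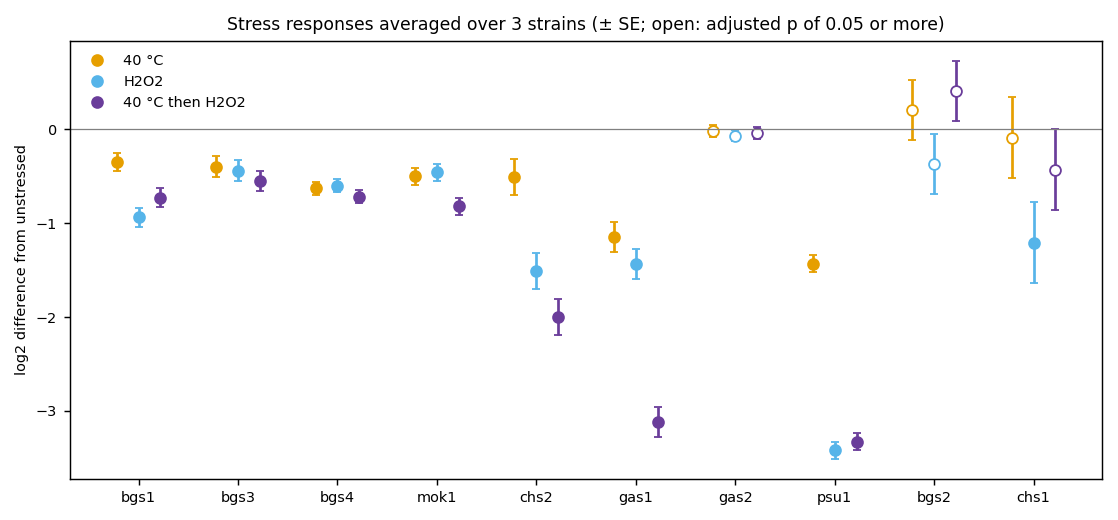
log2 difference from unstressed cells (vertical axis) averaged over 3 strains for each member (horizontal axis) at 40 °C, after H2O2, and after 40 °C then H2O2, with bars of ± 1 SE; filled points have an adjusted p under 0.05. psu1 has the lowest point in each condition, gas2 sits near 0, and the widest bars belong to bgs2 and chs1.

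Control probe sets moved with the same conditions, and some also with strain. The log2 difference between the 3' and 5' probe sets of S. pombe ACT1, a sign of RNA integrity, was 0.39 to 0.46 in unstressed cells, 0.46 to 0.56 at 40 °C, 0.65 to 0.66 after H2O2 and 0.80 to 1.03 after both. That of RIP1 was 0.90 to 1.17 unstressed, 0.86 to 1.34 at 40 °C, 0.89 to 1.09 after H2O2 and 0.76 to 1.01 after both. For CC338.15 it was 0.78 to 0.99 unstressed, 1.19 to 1.56 at 40 °C, 1.08 to 1.27 after H2O2 and 1.22 to 1.41 after both. The RIP1 value was higher in both mutants than in WT in every condition, with 1.29 and 1.34 against 0.86 at 40 °C. CC338.15 had the same order except after both stresses, where WT was highest. ACT1 was highest in WT in both conditions with H2O2. The 28S rRNA control read 10.21 to 10.73 unstressed, 9.62 to 10.61 at 40 °C, and 12.69 to 13.40 in both conditions with H2O2. The part of these controls in the falls or in the strain differences was not tested.

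The stressed conditions were also compared with each other. Relative to H2O2 alone, gas1 with the preceding 40 °C step differed by a further -1.68 ± 0.16 (3.2-fold lower, adjusted p = 0.000205). mok1 also fell, with a difference of -0.36 ± 0.09 (adjusted p = 0.0113). These were the 2 members called, where 35.8% of all probe sets were (18% higher, 17.8% lower). mok1 was not called there without slm9D, without hip1D or without the strain term (adjusted p = 0.115, 0.102 and 0.0594). For gas1 the WT value, -2.25, was larger than those of slm9D and hip1D, -1.43 and -1.36. psu1 differed by 0.09 ± 0.09 (adjusted p = 0.443).

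Relative to 40 °C alone, 5 members were lower with the added H2O2, where 45.7% of all probe sets were called (18.2% higher, 27.5% lower). The differences were -1.97 ± 0.16 for gas1 (3.93-fold, adjusted p = 5.96e-05), -1.90 ± 0.09 for psu1 (3.73-fold, adjusted p = 7.29e-06) and -1.49 ± 0.19 for chs2 (2.81-fold, adjusted p = 0.000371). For bgs1 and mok1 they were -0.38 ± 0.10 (adjusted p = 0.0105) and -0.32 ± 0.09 (adjusted p = 0.013). The last 2 were not called when slm9D or hip1D was left out (adjusted p from 0.129 to 0.239), nor was mok1 without the strain term (adjusted p = 0.0666).

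A further test asked whether the 2 stresses in sequence differed from the sum of their single effects. Of all probe sets 14.7% were called (8.95% higher, 5.79% lower), and 3 members, all less lowered than the sum. psu1 differed from the sum by 1.52 ± 0.13 (adjusted p = 0.000694), bgs1 by 0.56 ± 0.14 (adjusted p = 0.0272) and bgs4 by 0.51 ± 0.10 (adjusted p = 0.0114). For gas1 the value was -0.53 ± 0.22, with an adjusted p of 0.131. None of the 3 calls was kept without slm9D or without hip1D, where limma called 1 and 2 of all probe sets, although the psu1 value stayed at 1.52 in both cases (adjusted p = 0.0853 and 0.0926).

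In the 2 sporulation members the arrays were set apart by strain more than by stress. bgs2 read 8.37 in unstressed WT against 9.65 and 9.67 in slm9D and hip1D, and 8.98 against 9.76 and 9.56 at 40 °C. After H2O2 it read 7.32 against 9.60 and 9.66, and after both 9.33 against 9.79 and 9.81. The 8 mutant arrays stayed between 9.56 and 9.81 and all 4 WT arrays were below them. How many of all probe sets separate WT from the mutants in this way was not counted.

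chs1 read 6.94 in unstressed WT against 7.38 and 7.47 in slm9D and hip1D, and 6.71 against 7.35 and 7.45 at 40 °C. After H2O2 it read 4.14 against 7.05 and 6.96, and after both 5.66 against 7.43 on each mutant array. Again the mutant arrays, at 6.96 to 7.47, did not overlap with WT, at 4.14 to 6.94, although the gap between the ranges was small. The value of 4.14 lies 0.11 above the background of its array, so a fold change against it is limited by background.

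Over all conditions both were higher in the mutants, bgs2 by 1.19 ± 0.24 (2.28-fold, adjusted p = 0.00297) and chs1 by 1.45 ± 0.32 (2.74-fold, adjusted p = 0.00452), in a fit with 8 mutant and 4 WT arrays. Without the 3 arrays after H2O2 alone these were 0.81 (adjusted p = 0.00432) and 0.98 (adjusted p = 0.0111). With quantile normalization repeated on the S. pombe probe sets alone, chs1 was 0.88 higher (adjusted p = 0.00838). The means were log2 8.50 ± 0.88 for bgs2 and 5.86 ± 1.28 for chs1 in WT (SD, n = 4), against 9.69 ± 0.09 and 7.32 ± 0.20 in the mutants (n = 8).

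Of the vegetative members, chs2 (0.74 ± 0.14, 1.67-fold, adjusted p = 0.00216) and gas2 (0.17 ± 0.04, adjusted p = 0.00981) were higher in the mutants over all conditions, and psu1 was lower (-0.44 ± 0.07, 1.35-fold, adjusted p = 0.000783). bgs4 (-0.14 ± 0.05, adjusted p = 0.0434) and mok1 (-0.17 ± 0.06, adjusted p = 0.048) were lower by small amounts. Neither of the last 2 calls was kept after quantile normalization, nor with equal medians of the outside probe sets, nor when either mutant was left out. In all 7 of the 10 members were called, where 54% of all probe sets were (25.3% higher, 28.7% lower). The median over the vegetative members was -0.13 and over all probe sets -0.02. gas2 did not overlap either, with WT at 12.65 to 12.90 and the mutants at 12.92 to 13.04, but it was not called without slm9D (adjusted p = 0.0582).

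No member was called between slm9D and hip1D. Their log2 differences ran from -0.02 to 0.11 by limma, with an adjusted p of 1.0 for each. Over all probe sets 3 were called, 0.103%, and 6 had an unadjusted p under 0.05. SEs ran from 0.05 for gas2 to 0.37 for chs1. They come from the fit with the WT arrays, so they also hold differences in response between WT and the mutants. For chs1 and bgs2 those differences were 2.38 and 1.02 after H2O2. Small differences between slm9D and hip1D in these genes were thus not detectable in that fit. With the mutant arrays alone 0 members were called, and 10 of all probe sets were.

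**Figure D3:**
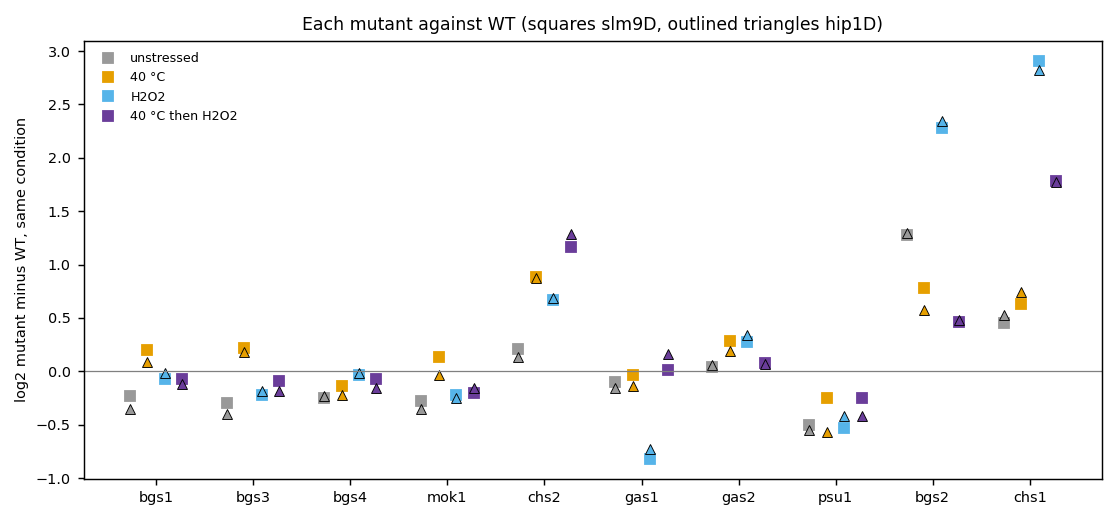
log2 difference of each mutant array from the WT array of the same condition (vertical axis) for each member (horizontal axis), squares for slm9D and outlined triangles for hip1D, coloured by condition. The highest points are those of chs1 and bgs2 after H2O2, and chs2 lies above 0 in every condition.

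Mutants and WT were also compared within each condition, with slm9D and hip1D as 2 arrays of a mutant group and the lone WT array assumed to vary as they do. In unstressed cells 7 members were called (60.6% of all probe sets, 26% higher and 34.6% lower). bgs2 was 1.29 ± 0.08 higher in the mutants (2.45-fold, adjusted p = 4.67e-09) and chs1 0.49 ± 0.10 higher (adjusted p = 0.000679). The 5 that were lower had log2 differences of -0.52 for psu1, -0.35 for bgs3, -0.31 for mok1, -0.29 for bgs1 and -0.24 for bgs4. After quantile normalization chs1 (0.17), mok1 (-0.18) and bgs4 (-0.10) were not called in unstressed cells.

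At 40 °C 7 members were called (63.4% of all probe sets, 29.3% higher and 34.1% lower). chs2 was 0.87 ± 0.09 higher in the mutants (1.83-fold, adjusted p = 4.97e-07), chs1 0.69 ± 0.10, bgs2 0.68 ± 0.08, gas2 0.24 ± 0.04 and bgs3 0.20 ± 0.07 higher. psu1 (-0.41 ± 0.11) and bgs4 (-0.18 ± 0.07) were lower. After quantile normalization chs1 was 0.33 higher, and neither bgs3 nor bgs4 was called.

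After H2O2 alone the gap between strains was widest for both sporulation members. chs1 was 2.87 ± 0.10 higher in the mutants (7.29-fold, adjusted p = 1.57e-12) and bgs2 2.31 ± 0.08 higher (4.96-fold, adjusted p = 2.16e-12). chs2 was 0.68 ± 0.09 and gas2 0.31 ± 0.04 higher, while gas1 (-0.77 ± 0.07, 1.71-fold, adjusted p = 1.29e-07), psu1 (-0.48 ± 0.11), mok1 (-0.24 ± 0.07) and bgs3 (-0.20 ± 0.07) were lower. That makes 8 members called, with 75.2% of all probe sets called (38% higher, 37.2% lower). All of these rest on the WT array that stood apart in median signal and background. After quantile normalization chs1 was 1.74 higher, and neither chs2, at 0.18 (adjusted p = 0.0581), nor mok1, at -0.14 (adjusted p = 0.116), was called. bgs3 was not called with equal medians of the outside probe sets (-0.15, adjusted p = 0.0847).

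After 40 °C then H2O2 5 members were called (59.1% of all probe sets, 29.5% higher and 29.6% lower). chs1 was 1.77 ± 0.10 higher in the mutants (3.42-fold, adjusted p = 1.06e-09), chs2 1.23 ± 0.09 (2.34-fold, adjusted p = 1.4e-08) and bgs2 0.47 ± 0.08 (1.38-fold, adjusted p = 0.000215). psu1 (-0.33 ± 0.11, adjusted p = 0.016) and mok1 (-0.18 ± 0.07, adjusted p = 0.047) were lower. After quantile normalization chs2 was 0.74 higher. mok1 was not called after quantile normalization (adjusted p = 0.11), with equal medians of the outside probe sets (adjusted p = 0.151) or without the intensity trend (adjusted p = 0.0725), and psu1 was not called without that trend (adjusted p = 0.0531).

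Whether the stress responses themselves differed between mutants and WT was tested in a fit with 1 WT array per condition. Its spread comes only from slm9D against hip1D, 2 genotypes, with 3 residual degrees of freedom, so the p-values leave out any spread of WT arrays. From unstressed to H2O2 chs1 went by -2.80 in WT and by -0.33 and -0.51 in slm9D and hip1D, a difference in response of 2.38 ± 0.15 (adjusted p = 8.87e-10). bgs2 went by -1.05 in WT and by -0.05 and -0.02 in the mutants, a difference of 1.02 ± 0.12 (adjusted p = 1.38e-06). So the fall of chs1 after H2O2 averaged over strains (-1.21 ± 0.43, adjusted p = 0.0442) was mostly that of WT. Without the WT arrays it was -0.42 (adjusted p = 0.000128). The call was lost without slm9D or hip1D (adjusted p = 0.0749 and 0.0887), after quantile normalization (-0.78, adjusted p = 0.0558), and without the intensity trend or the strain term (adjusted p = 0.0594 and 0.265).

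The H2O2 response of 3 vegetative members differed too. gas1 went by -1.02 in WT and by -1.73 and -1.59 in slm9D and hip1D, a difference of -0.64 ± 0.10 (adjusted p = 4.42e-05). chs2 went by -1.85 in WT against -1.38 and -1.29 (difference 0.51 ± 0.13, adjusted p = 0.00336), but the difference was 0.03 after quantile normalization (adjusted p = 0.849). gas2 differed by 0.26 ± 0.06 (adjusted p = 0.00168), which was not called without the intensity trend (adjusted p = 0.0533). In all 5 members were called, with 47.3% of all probe sets (31% higher, 16.3% lower). After quantile normalization the differences were 1.57 for chs1 and 0.51 for bgs2. psu1 gave 0.05 ± 0.13 (adjusted p = 0.781).

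In the response to 40 °C 6 members differed between mutants and WT (40.7% of all probe sets, 22.7% higher and 18% lower). bgs3 went by -0.77 in WT and by -0.25 and -0.20 in the mutants (difference 0.54 ± 0.10, adjusted p = 0.000348). For chs2 the values were -0.98 in WT and -0.31 and -0.24 in the mutants (difference 0.70 ± 0.13, adjusted p = 0.000269). For bgs1 and mok1 the differences were 0.43 ± 0.10 and 0.36 ± 0.10, and for gas2 0.19 ± 0.06, not called without the intensity trend (adjusted p = 0.146). bgs2 went the other way (-0.61 ± 0.12, adjusted p = 0.000409), with 0.61 in WT against 0.11 and -0.11 in the mutants.

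After 40 °C then H2O2 3 members differed in response (46% of all probe sets, 26.8% higher and 19.2% lower). chs1 went by -1.28 in WT, with 0.05 and -0.04 in the mutants (difference 1.28 ± 0.15, adjusted p = 1.64e-06). chs2 went by -2.70 in WT against -1.76 and -1.54 (difference 1.05 ± 0.13, adjusted p = 2.7e-06, and 0.59 after quantile normalization). bgs2 was 0.96 above unstressed in WT against 0.14 in each mutant (difference -0.82 ± 0.12, adjusted p = 1.71e-05). The WT values of bgs2 thus lay below unstressed after H2O2 alone and above it after the sequence.

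The share of each member's spread that went with condition or with strain sums up these patterns. Condition took 97.6% of the sum of squares for psu1, 97.1% for gas1, 94.5% for bgs1, 92.8% for bgs4, 87.9% for mok1, 80.2% for chs2 and 77.1% for bgs3. For bgs2 and chs1 it took 16.4% and 25.3%, while strain took 61.0% and 52.2%. gas2 had 61.5% with strain, of a small total. The medians over all probe sets were 66.4% for condition and 16.0% for strain.

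**Figure D4:**
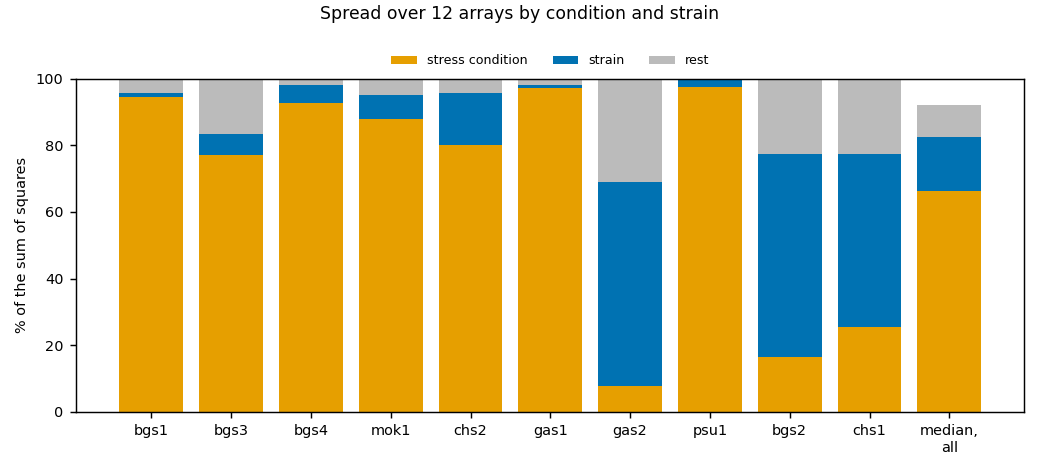
Percent of each member's sum of squares over 12 arrays (vertical axis) that goes with stress condition, with strain, or with neither (rest). The last bar stacks the medians over all S. pombe probe sets, which need not add up to the whole. bgs2, chs1 and gas2 have most of their spread with strain, and the other 7 members with condition.

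Over the 12 arrays bgs2 and chs1 correlated at Pearson r 0.83, and bgs3 and mok1 at 0.94. The vegetative member gas2 correlated about as well with both sporulation members, at 0.82 with bgs2 and 0.83 with chs1. For chs1 and chs2 the value was 0.61. bgs2 correlated at -0.42 with mok1 and -0.36 with bgs3. The probe sets whose pattern was most like that of psu1 were kei1 (0.987), bms1 (0.984) and nrm1 (0.978), and for gas1 cbs2 (0.991), pho4 (0.990) and erv25 (0.980). For bgs2 they were ppk24 (0.976), rad13 (0.969) and dcr1 (0.968), and for chs1 kha1 (0.949), ght3 (0.949) and ers1 (0.946). chs2 was most like myp2 (0.985), a myosin II heavy chain of the contractile ring, then isp7 (0.973) and msa1 (0.963). gas2 was most like mok12 (0.935), mug170 (0.931) and mip1 (0.923).

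The other synthase genes gave the same kind of description. bgs1 was most like dbp10 (0.977), nif1 (0.964) and psu1 (0.963), and bgs3 like bio2 (0.963), trm1 (0.946) and mok1 (0.944). bgs4 was most like tif471 (0.974), nuc1 (0.964) and scw1 (0.962), and mok1 like scw1 (0.974), npp106 (0.974) and rps1001 (0.970). scw1 encodes an RNA-binding protein that affects wall integrity. These are descriptions over 12 arrays that share strains, conditions and RNA, with no test.

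Of the genes around this pathway, the alpha-glucan synthase paralogs mok11, mok12, mok13 and mok14 were higher in the mutants. Deletions of mok12, mok13 and mok14 are known to affect the spore wall. In the order WT, slm9D, hip1D mok12 had 8.03, 9.09 and 9.11 unstressed and 6.53, 8.84 and 8.87 after H2O2. mok11 read 8.71, 10.10 and 10.12 unstressed and 7.36, 9.42 and 9.40 after H2O2. In every condition WT was the lowest strain for all 4. The share of all probe sets with this order of strains was not counted.

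Over all conditions mok11 was 1.77 ± 0.09 higher in the mutants (adjusted p = 1.52e-06), mok12 1.52 ± 0.19 (adjusted p = 0.000195), mok13 1.02 ± 0.13 (adjusted p = 0.000219) and mok14 0.92 ± 0.17 (adjusted p = 0.0017). All 4 were called, with a median of 1.27, where 54% of all probe sets were called. All 4 were also called within each of the 4 conditions, where 59.1% to 75.2% of all probe sets were. Values for the H2O2 response rest on the WT array that stood apart in median signal and background. The mutants minus WT differences in that response were 0.65 for mok11, 1.25 for mok12, 0.93 for mok13 and 1.05 for mok14. mok1 gave 0.08 ± 0.10 there (adjusted p = 0.535). At 40 °C mok13 and mok11 rose by 0.70 ± 0.17 and 0.50 ± 0.13, where mok1 fell.

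**Figure D5:**
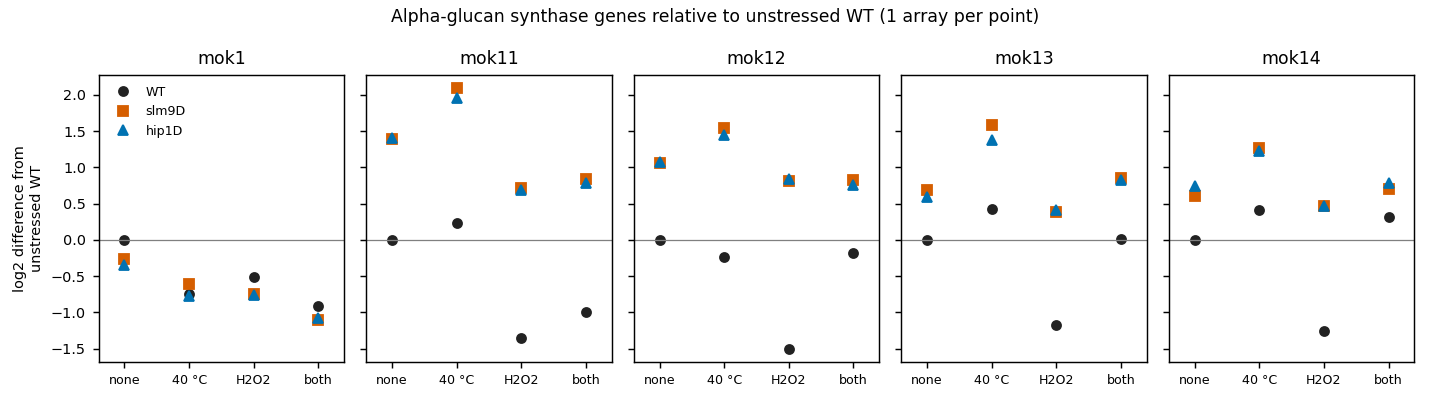
log2 difference of each array from the unstressed WT array (vertical axis) for mok1 and its 4 paralogs in the 4 conditions (horizontal axis), 1 point per array, with circles for WT, squares for slm9D and triangles for hip1D. The mutants lie above WT for mok11, mok12, mok13 and mok14 in every condition, and not for mok1.

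Markers of sporulating cells also moved with strain. All 10 listed markers were measured, and 8 were higher in the mutants over all conditions and 0 lower, with a median log2 difference of 1.91. In this comparison, which is used for each marker list here, 54% of all probe sets were called (25.3% higher, 28.7% lower). The summed signal of these markers was log2 10.49 to 11.08 in WT, 11.48 to 11.63 in slm9D and 11.55 to 11.60 in hip1D. Of these 10, mug137 was not above background on any WT array. mei4 was above background on 9 of the 12 arrays, and spn5 and spn6 on 11 each. The h+ markers map2 and map3 summed to 7.36 to 7.79 in WT, 7.65 to 8.27 in slm9D and 7.64 to 8.34 in hip1D. The strains are labelled h-, and both h+ markers were above background on all 12 arrays. The 5 h- markers summed to 10.93 to 11.23 in WT, 10.47 to 11.05 in slm9D and 10.48 to 11.10 in hip1D, and over all conditions 3 of them were higher in the mutants and 1 lower, with a median log2 difference of 0.59. The lower one was mfm2, an M-factor pheromone gene (-1.82), the opposite sign of the median. The 3 markers of starved mating cells summed to 9.20 to 10.34, 9.07 to 9.93 and 9.14 to 9.97 in the same order. Of these 3, fus1 was higher in the mutants (2.00) and ste11 lower (-1.03). In bulk RNA, more cells of a type and more RNA per cell cannot be told apart. The part of sporulating cells in the levels of bgs2 and chs1 was not tested.

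The other listed glucanosyltransferase genes, gas4 and gas5, also fell. gas5, which acts in vegetative cells, read 11.15, 11.10 and 11.10 unstressed and 8.65, 8.84 and 8.97 after both stresses. It fell under each stress, by log2 differences of -1.64 ± 0.09 at 40 °C (adjusted p = 5.01e-06), -1.14 ± 0.09 after H2O2 (adjusted p = 5.04e-05) and -2.30 ± 0.09 after both (adjusted p = 7.62e-07). gas4, which is needed for the spore wall, was lower at 40 °C (-0.68 ± 0.10) and after both (-0.37 ± 0.10), and gave -0.19 after H2O2, which was not called. Neither was called in mutants against WT over all conditions.

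Of the 7 listed glucanase genes 6 were measured. exg1 gave log2 differences of -2.74 ± 0.18 at 40 °C, -1.04 ± 0.18 after H2O2 and -3.16 ± 0.18 after both, all called. eng1, the endo-beta-1,3-glucanase that dissolves the primary septum, gave -2.47 ± 0.39, -2.72 ± 0.39 and -3.92 ± 0.39, also called. At 40 °C 2 were lower and 0 higher, after H2O2 3 lower and 1 higher, and after both 2 lower and 2 higher, against 48.4%, 45% and 57.3% of all probe sets called. These shares are near the background. agn2, an alpha-glucanase that opens the ascus wall, was 0.40 ± 0.10 higher after H2O2. In the mutants eng2 (0.80 ± 0.09), exg2 (0.57 ± 0.12) and agn2 (0.35 ± 0.07) were higher over all conditions and 0 of the 6 were lower. Of all probe sets 54% were called there (25.3% higher, 28.7% lower). In unstressed cells eng1 differed by -0.92 between mutants and WT, where the median of the 6 was 0.29.

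Most other wall protein genes fell at 40 °C. Of 8 measured 6 were lower and 1 higher there, with a median of -1.04. ecm33, a GPI-anchored wall protein, differed by -1.31 ± 0.08 at 40 °C (adjusted p = 5.34e-06), adg2 by -2.68 ± 0.24 (adjusted p = 3.1e-05), adg1 by -3.18 ± 0.46 (adjusted p = 0.000509) and gma12, a galactosyltransferase gene, by -0.78 ± 0.11 (adjusted p = 0.000527). adg1 and adg2 encode wall glycoproteins. With H2O2 alone 4 of the 8 were lower and 0 higher, and after both 6 were lower and 1 higher. Of all probe sets 25.7% were lower at 40 °C, 29.2% after H2O2 and 33.5% after both. In the mutants 1 of the 8, pvg1, was called over all conditions (-0.32 ± 0.11, adjusted p = 0.031).

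Of the integrity MAP kinase pathway, mkh1, pek1, pmk1 and the phosphatase gene pmp1 were measured. mkh1 rose by 0.51 ± 0.16 at 40 °C and was 0.62 ± 0.12 higher in the mutants. At 40 °C 1 of these 4 was higher and 1 lower (lowest -0.58). After H2O2 0 were higher and 2 lower, and after both 1 was higher and 3 lower. In the mutants over all conditions 2 were higher and 1 lower (lowest -0.41). Of all probe sets 48.4%, 45%, 57.3% and 54% were called in the same order. Of the chitin synthase regulators chr4 and cfr1 were measured, 2 of 9 listed. chr4 was lower in all 3 stresses (-0.70 ± 0.11 at 40 °C, -0.62 ± 0.11 after H2O2 and -1.14 ± 0.11 after both), and cfr1 was 0.77 ± 0.23 higher in the mutants. Of 4 listed genes of precursor supply 2 were measured. gna1, which acts in the making of the chitin precursor UDP-N-acetylglucosamine, rose by 1.37 ± 0.29 at 40 °C and by 1.66 ± 0.29 after both, and uap1, of the same route, was lower in the mutants over all conditions (-0.78 ± 0.12).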

How the data were processed

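Per the submitters' processing notes, RMA was run in Affymetrix Expression Console 1.1. Its settings are not stated in the labels. The authors' deposited intensity values are linear, from 2.9 to 20293. RMA equalises arrays and so removes total differences in RNA content. For the tests log2 of the deposited values was taken, and all 12 columns were used. Probe sets were named from the platform annotation through the RefSeq gene table (2914 by gene ID, 3 by symbol). Those with 1 S. pombe gene were tested with limma 3.58.1 in R 4.3.3 (empirical Bayes with an intensity trend, Benjamini-Hochberg over 2917 probe sets). Stress and overall strain comparisons came from an additive fit of strain and condition (6 residual degrees of freedom). Mutants within a condition came from 8 means (4 degrees), and differences in response from 8 means and a slm9D against hip1D term (3 degrees). The fits were tested on simulated data with equal noise on every array, which cannot show an added spread of WT arrays. Background is the 95th percentile of 2601 probe sets for genes outside S. pombe.

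The text names all 10 members, called genes of each pathway list by smallest p (at most 4 a list and comparison), and the 3 probe sets most correlated with each member. Values of those genes in further comparisons were added after the results were seen. The members and lists were chosen with earlier results of these data known. Alternatives dropped dim probe sets, repeated quantile normalization, set equal medians of the outside probe sets, left out the intensity trend, the strain term or a strain, and, chosen after seeing the data, left out the arrays after H2O2 alone. Promoter motifs were not analysed here, and 1 of the pathway lists is not reported here.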

Additional observations from a re-analysis of the deposited data

Results flagged for a closer look

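Responses that differed between mutants and WT in limma (mutants minus WT, log2) were these. At 40 °C the differences were 0.43 for bgs1, -0.61 for bgs2, 0.54 for bgs3, 0.36 for mok1, 0.70 for chs2 and 0.19 for gas2. After H2O2 they were 1.02 for bgs2, 2.38 for chs1, 0.51 for chs2, -0.64 for gas1 and 0.26 for gas2. After 40 °C then H2O2 they were -0.82 for bgs2, 1.28 for chs1 and 1.05 for chs2. Each rests on 1 WT array per condition, with spread taken from slm9D against hip1D only. The WT array after H2O2 alone had the lowest median signal and the highest background, and its part in the H2O2 differences was not tested. After quantile normalization the gas2 and chs2 differences after H2O2 were 0.29 and 0.03.

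The effect of H2O2 also differed between cells with and without the 40 °C step, by 0.56 for bgs1, 0.51 for bgs4 and 1.52 for psu1.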

How the results depend on the processing

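Of 880 recomputed values of single members, 27 changed sign, 0 of them called in either fit, while 60 lost a call and 13 gained one. Quantile normalization turned gas2 to 0.06 at 40 °C, 0.07 after both stresses and 0.01 for both against 40 °C, chs1 to 0.14 for both against 40 °C, chs2 to -0.03 for the departure from the sum of both stresses, gas2 and chs2 to 0 and 0.01 for slm9D against hip1D, gas1 to 0.01 (unstressed) and 0.02 (40 °C) in mutants against WT, bgs4 to 0.04 in mutants against WT after H2O2, and the response differences of bgs4 at 40 °C to -0.06 and of psu1 to -0.04, -0.28 and -0.02. Equal medians of the outside probe sets turned gas2 to 0.05 at 40 °C and 0.01 after both, chs2 to -0.01 for the departure from the sum, and bgs4 to 0.02 in mutants against WT after H2O2. Leaving out each strain in turn gave ranges that crossed 0, of 0 to 0.36 for bgs2 and -0.08 to 0.04 for gas2 at 40 °C, -0.13 to 0.01 for gas2 after H2O2, -0.66 to 0 for chs1 after both, -0.04 to 0.10 for gas2 in both against H2O2, -0.54 to 0.03 for chs1 and -0.07 to 0.03 for gas2 in both against 40 °C, and -0.09 to 0.13 for gas2 and -0.03 to 0.06 for chs2 in the departure. Among counts of called members, leaving out a strain gave 4 to 7 at 40 °C, 5 to 8 after H2O2, 7 to 7 after both, 1 to 7 for both against H2O2, 3 to 6 for both against 40 °C, 0 to 5 for the departure, and 4 to 5 for mutants against WT. Without a strain term the count was 1 for both against H2O2 and 1 for the departure. In unstressed mutants it was 4 after quantile normalization, and after both stresses 3 without an intensity trend. The cause was not tested. No fit within a condition or of response differences was possible without slm9D or hip1D, since no residual degrees of freedom remain.

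With 1 array per strain and condition, the number of arrays limits the precision. chs1 on the WT array after H2O2 lay close to background. Strain is already a term of the additive fit, and the fit of response differences has a slm9D against hip1D term. These terms set the arrays of a strain against each other across conditions. The fits within a condition have no term for slm9D against hip1D. The labels carry no replicate numbers for a further block.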
